A study of Arabidopsis thaliana with 11 samples.

Results

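The genes described here are those whose transcripts were lower on brassinazole (BRZ) in both the arf2 mutant and the Col wild type of Arabidopsis. They were selected on measured values. A probe set belonged when its mean log2 intensity was lower on BRZ than on mock by at least 0.8 in Col and also in arf2, with every BRZ array below every mock array of the same genotype. Of 22746 probe sets 69 met these conditions. Leaving out 4 that are named for AT1G75900, AT4G36430, EXLB1 and CP1 gave 65 members. Of these, 26 are named for exactly 1 gene each, 3 for several genes and 36 for none in the supplied annotation. The unnamed members are given by probe set ID or in counts.

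RNA came from seedlings that were 4 days old and had been raised without light, either on 0.5 µM BRZ or on mock medium. The arrays were Affymetrix ATH1 arrays, 1 per RNA sample: 2 of arf2 on BRZ, 3 of arf2 on mock, 3 of Col on BRZ and 3 of Col on mock. The labels call them independent biological replicates and do not name the arf2 allele or say how many seedlings were pooled. According to the design text the arf2 BRZ group has no more arrays that met quality control, so each of its means rests on 2. In RNA of whole seedlings, fewer cells of a type and less RNA per cell cannot be told apart.

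Brassinosteroids are plant steroid hormones that promote cell elongation, and BRZ blocks an enzyme of their synthesis. Seedlings kept in the dark with too little brassinosteroid stay short and open their cotyledons. The hormone is sensed by the receptor kinase BRI1, the signal inactivates the kinase BIN2, and the transcription factors BZR1 and BES1 then change the expression of many genes, among them genes of cell wall growth. ARF2 is an auxin response factor that represses transcription and is a known substrate of BIN2.

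The arrays differed in level. Their median log2 intensity over tested probe sets lay between 6.23 and 6.28 for arf2 BRZ and between 6.09 and 6.22 for arf2 mock. It lay between 6.20 and 6.22 for Col BRZ and between 5.93 and 6.20 for Col mock. Setting all medians equal moved the median BRZ minus mock difference of all probe sets by -0.19 in Col and the median arf2 minus Col difference on mock by -0.15, both on the log2 scale. Signal of 25S ribosomal RNA, from a control probe set, was 33.6 to 63.9 on arf2 BRZ and 173 to 263 on arf2 mock. In Col it was 85.3 to 131 on BRZ and 59.7 to 95.9 on mock. Ratios of 3′ to 5′ control probe sets, which reflect RNA integrity and labelling, depended on the pair. One actin pair gave 1.97 to 2.41 over all 11 arrays. The other actin pair gave 11.6 to 14.1 on Col BRZ against 14.2 to 23.6 on Col mock, without overlap. In arf2 that pair overlapped, with 14.9 to 15.9 on BRZ against 12.6 to 16.0 on mock. A GAPDH pair gave 0.790 to 0.854 on arf2 BRZ against 0.720 to 0.782 on arf2 mock, without overlap. In Col the GAPDH pair overlapped, with 0.764 to 0.916 on BRZ against 0.760 to 0.808 on mock. The part of these array differences in the BRZ differences was not tested.

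The 65 members were lower on BRZ by a median of 2.53-fold in arf2 and 2.24-fold in Col. The differences ran from 1.74-fold to 12.3-fold in arf2 and from 1.76-fold to 5.71-fold in Col. In both genotypes 38 members were at least 2-fold lower and 3 at least 4-fold lower. These sizes chose the members and carry no test. Of all probe sets, 1.41% met the condition in arf2, 0.809% met it in Col and 0.303% met both. The 69 shared probe sets were 21.6% of the 320 that met the arf2 condition and 37.5% of the 184 that met the Col condition.

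**Figure D1:**
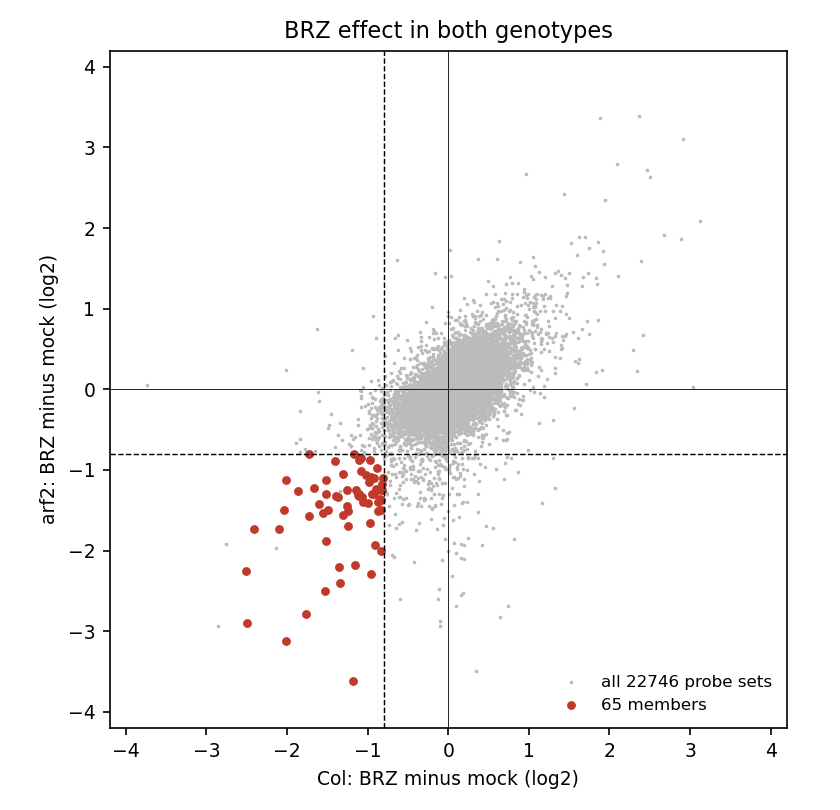
Each point is a probe set, with its BRZ minus mock difference of mean log2 intensity in Col on the horizontal axis and in arf2 on the vertical axis. Grey points are all 22746 probe sets, red points the 65 members, and dashed lines mark -0.8. The members reach -3.62 in arf2 and -2.51 in Col.

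Members spanned a wide range of levels. Their median intensity was 133 on arf2 BRZ, 378 on arf2 mock, 108 on Col BRZ and 277 on Col mock. The mean intensity of 3 members on arf2 BRZ and of 4 on Col BRZ lay under 22.7, the mean lower quartile of the arrays, where the size of a fold depends on the background correction. All 65 passed the filter on low values used for the tests.

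The choice has an arbitrary edge. The named members nearest inside it were AT1G25400, whose smaller difference was -0.81, AT4G28085 (-0.82) and Fes1A (-0.83). The named genes nearest outside were AT5G17160 (-0.79), the peroxidase gene AT2G41480 (-0.78) and AT5G48570, which encodes a heat-induced FKBP-type chaperone (-0.78). AT2G41480 missed it through arf2 alone, since its Col difference was -1.84.

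Among the members kept, the largest named group outside the stress-linked genes codes for proteins of the cell wall and its secreted enzymes, with 7 genes. AT4G18280, annotated elsewhere as a glycine-rich wall protein, had the deepest mean difference of any named member. It read 117 and 160.3 on arf2 BRZ, against 1110.4, 1349 and 1123 on arf2 mock. In Col it read 116, 93.0 and 117 on BRZ, against 364, 500.0 and 458 on mock. It was thus 8.68-fold lower on BRZ in arf2 and 4.04-fold lower in Col, and arf2 lay above Col on either medium, by a narrow margin on BRZ (117.1 as the lower arf2 value, against 117.05 as the highest in Col).

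TBL37 (AT2G34070) belongs to the trichome birefringence-like family, whose members acetylate wall polysaccharides. It read 388 and 358 on arf2 BRZ, against 1152, 1159 and 862 on arf2 mock. In Col it read 391, 338 and 346 on BRZ, against 1004, 963 and 1065 on mock. The difference was nearly the same size in both genotypes, 2.81-fold in arf2 and 2.82-fold in Col.

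AT2G04570 encodes a GDSL-type lipase, a secreted ester hydrolase. It read 329 and 331 on arf2 BRZ, against 788, 880.4 and 777 on arf2 mock, and in Col 365, 365 and 317 on BRZ, against 997, 1117 and 899 on mock. The peroxidase gene AT3G21770 read 473 and 391 on arf2 BRZ, against 895, 976 and 954 on arf2 mock. Its Col values were 373, 353 and 320.4 on BRZ, against 1022, 1050.3 and 929 on mock. Class III peroxidases act on wall phenolics and proteins. The lipase gene was lower in every arf2 mock array than in every Col mock array, and the peroxidase gene was higher in both arf2 BRZ arrays than in every Col BRZ array. Neither difference was called by the test described with the genotype comparison (adjusted p 0.121 and 0.383).

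AT1G30760 encodes a berberine bridge enzyme-like oxidase that acts on lignin precursors. It read 45.8 and 43.3 on arf2 BRZ, against 123, 147 and 93.9 on arf2 mock, and 46.2, 47.1 and 45.9 on Col BRZ, against 153, 137 and 133 on Col mock. AT2G01610, of the family of pectin methylesterase and invertase inhibitors, was the weakest of the group in intensity. It read 21.0 and 23.0 on arf2 BRZ, against 40.6, 45.5 and 55.8 on arf2 mock, and 22.1, 21.8 and 21.0 on Col BRZ, against 34.0, 48.9 and 44.4 on Col mock. Its BRZ values sit at the lower quartile of the arrays, so its 2.13-fold and 1.94-fold differences in arf2 and Col are poorly determined.

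The germin-like gene AT3G05950, whose product is a secreted protein of the cupin family, differed between the genotypes. It read 97.2 and 84.5 on arf2 BRZ, against 341, 428 and 279 on arf2 mock, and 45.8, 40.0 and 42.5 on Col BRZ, against 66.9, 90.8 and 84.1 on Col mock. Both arf2 BRZ arrays lay within or above the range of the Col mock arrays, and each genotype's BRZ arrays lay below its own mock arrays.

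**Figure D2:**
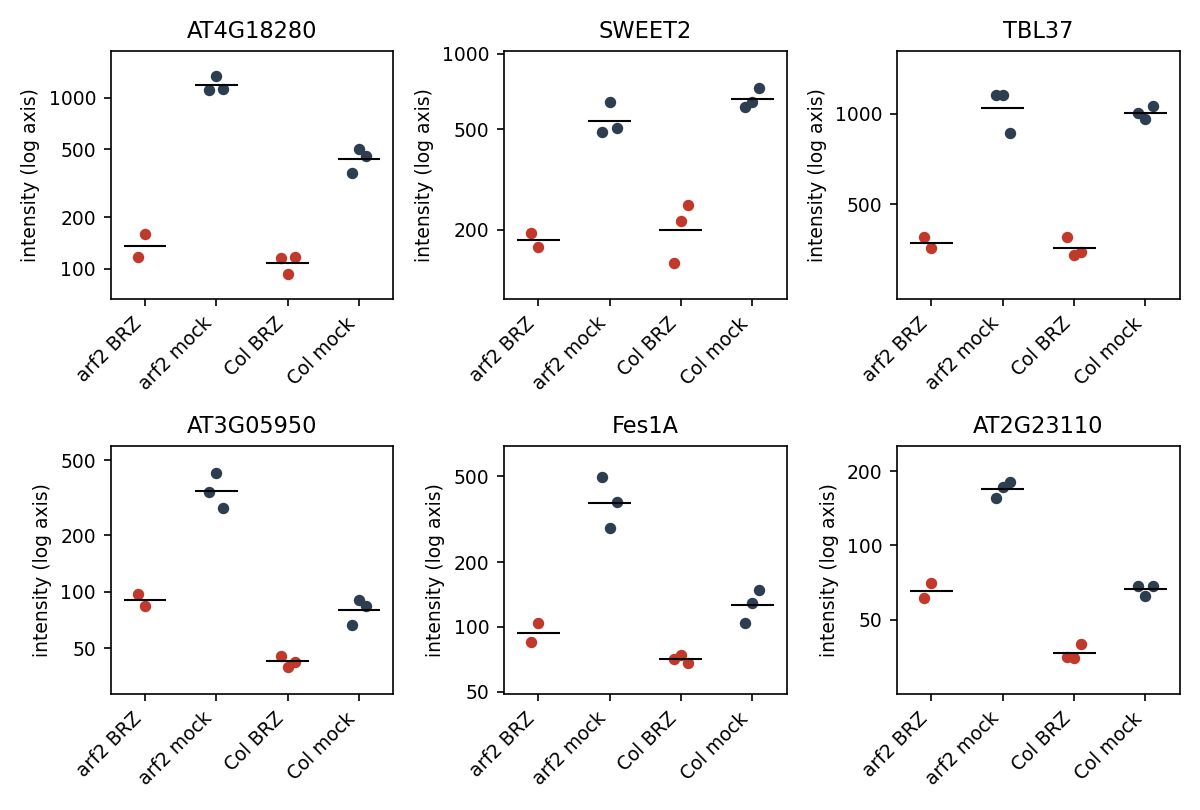
Deposited intensity on each array (points, log axis) for 6 named members, with bars at the group mean of log2 values. BRZ groups are red and mock groups dark. TBL37 and SWEET2 have like levels in both genotypes, whereas AT4G18280, AT3G05950, Fes1A and AT2G23110 stand higher in arf2 on mock (mean 169 for AT2G23110, against 66.3 in Col on mock).

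Sugar transporters of the SWEET family gave 2 members. SWEET2 (AT3G14770), a vacuolar sugar transporter, read 194 and 170.4 on arf2 BRZ, against 488, 641 and 505 on arf2 mock. Its Col values were 148, 215 and 249 on BRZ, against 615, 642 and 734 on mock. SWEET17 (AT4G15920), a vacuolar fructose transporter, read 47.4 and 41.4 on arf2 BRZ, against 105, 124 and 88.5 on arf2 mock, and 47.1, 46.3 and 54.0 on Col BRZ, against 106, 114 and 134 on Col mock. SWEET2 was 2.97-fold lower on BRZ in arf2 and 3.31-fold in Col, and SWEET17 2.37-fold and 2.40-fold, so neither had a clearly deeper difference in one genotype.

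Enzymes and signalling proteins made up 5 members. AT3G55940 encodes a phosphoinositide-specific phospholipase C, which makes second messengers from membrane lipids. It read 35.5 and 33.8 on arf2 BRZ, against 94.6, 103 and 96.7 on arf2 mock, and 26.9, 31.7 and 29.8 on Col BRZ, against 137, 119 and 109 on Col mock. AT5G04120, of the phosphoglycerate mutase family, read 24.4 and 17.5 on arf2 BRZ, against 62.9, 36.2 and 53.5 on arf2 mock, and 19.5, 21.1 and 19.0 on Col BRZ, against 72.9, 76.9 and 67.8 on Col mock. Both were lower by a larger factor in Col (4.11-fold and 3.65-fold) than in arf2 (2.83-fold and 2.40-fold), with BRZ levels near the lower quartile for AT5G04120.

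AT5G35735, an auxin-responsive gene for a membrane protein with a cytochrome b561 domain, read 125 and 131 on arf2 BRZ, against 286, 343 and 333 on arf2 mock. In Col it read 69.3, 68.1 and 54.9 on BRZ, against 178, 148 and 177 on mock. It was 2.51-fold lower on BRZ in arf2 and 2.62-fold in Col, while arf2 stood above Col on either medium. NANA (AT3G12700), a chloroplast aspartyl protease, averaged 231 on arf2 BRZ against 424 on arf2 mock, and 222 on Col BRZ against 479 on Col mock. AT4G20320, a CTP synthase that makes a nucleotide for RNA and lipid synthesis, averaged 261 on arf2 BRZ against 639 on arf2 mock, and 216 on Col BRZ against 466 on Col mock.

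Among the members kept, genes known from stress, cold, salt or drought responses formed the largest group, with 8 named members. The 4 probe sets left out by name are counted in no role group, so this order of group sizes holds only without them. Fes1A (AT3G09350), a nucleotide exchange factor for HSP70 chaperones, read 84.9 and 104 on arf2 BRZ, against 496, 288 and 379 on arf2 mock. In Col it read 70.8, 73.7 and 68.3 on BRZ, against 104, 129 and 149 on mock. The difference was 4.03-fold in arf2 and 1.78-fold in Col, with arf2 mock arrays well above all others.

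AT2G32190, of the family of small cysteine-rich membrane proteins (CYSTM), read 46.7 and 48.8 on arf2 BRZ, against 271, 192 and 311 on arf2 mock, and 30.9, 31.7 and 25.6 on Col BRZ, against 88.1, 60.9 and 75.9 on Col mock. A further member probe set is shared by this gene and another, so signal of near copies cannot be told apart. AT4G30650, of a family of small membrane proteins induced by cold and salt, read 19.6 and 21.2 on arf2 BRZ, against 137, 130.0 and 157 on arf2 mock. Its Col values were 16.8, 14.6 and 17.5 on BRZ, against 57.8, 36.8 and 79.2 on mock. All 5 BRZ values lay under the lower quartile of the arrays, so its folds are poorly determined. AT2G32190 was 5.30-fold lower on BRZ in arf2 and 2.53-fold in Col, and AT4G30650 6.91-fold and 3.40-fold.

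AT2G23110, which encodes a late embryogenesis abundant protein, read 61.4 and 70.3 on arf2 BRZ, against 156, 172 and 181 on arf2 mock, and 35.4, 35.0 and 40.0 on Col BRZ, against 68.4, 62.5 and 68.3 on Col mock. The arf2 BRZ arrays thus reached the level of Col on mock. SIS (AT5G02020), a salt-induced serine-rich protein, was the brightest named member. It read 2146 and 2940.0 on arf2 BRZ, against 5529, 4940.1 and 5332 on arf2 mock, and 2055, 2228 and 2007 on Col BRZ, against 3767, 4288 and 4778 on Col mock.

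Among the other stress-linked members, the differences of AT5G38710 and PUB19 were close in size between the genotypes. AT5G38710, a proline dehydrogenase that breaks down proline, was 2.89-fold lower on BRZ in arf2 and 2.94-fold in Col. PUB19 (AT1G60190), a U-box ubiquitin ligase of drought signalling, was 1.96-fold lower in arf2 and 1.85-fold in Col. AT2G21640, a mitochondrial protein gene induced by oxidative stress, was 2.36-fold lower in arf2 and 1.87-fold in Col. For 4 named members no role is given, namely AT2G41730, AT4G33666, AT4G28085 and AT1G25400. They were 2.84-fold, 2.47-fold, 2.26-fold and 2.15-fold lower in arf2, and 1.83-fold, 1.89-fold, 1.76-fold and 1.76-fold lower in Col. The probe set of AT2G41730 is of the type that may cross-hybridise. The role groups were formed after the values had been seen and are used for description.

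**Figure D3:**
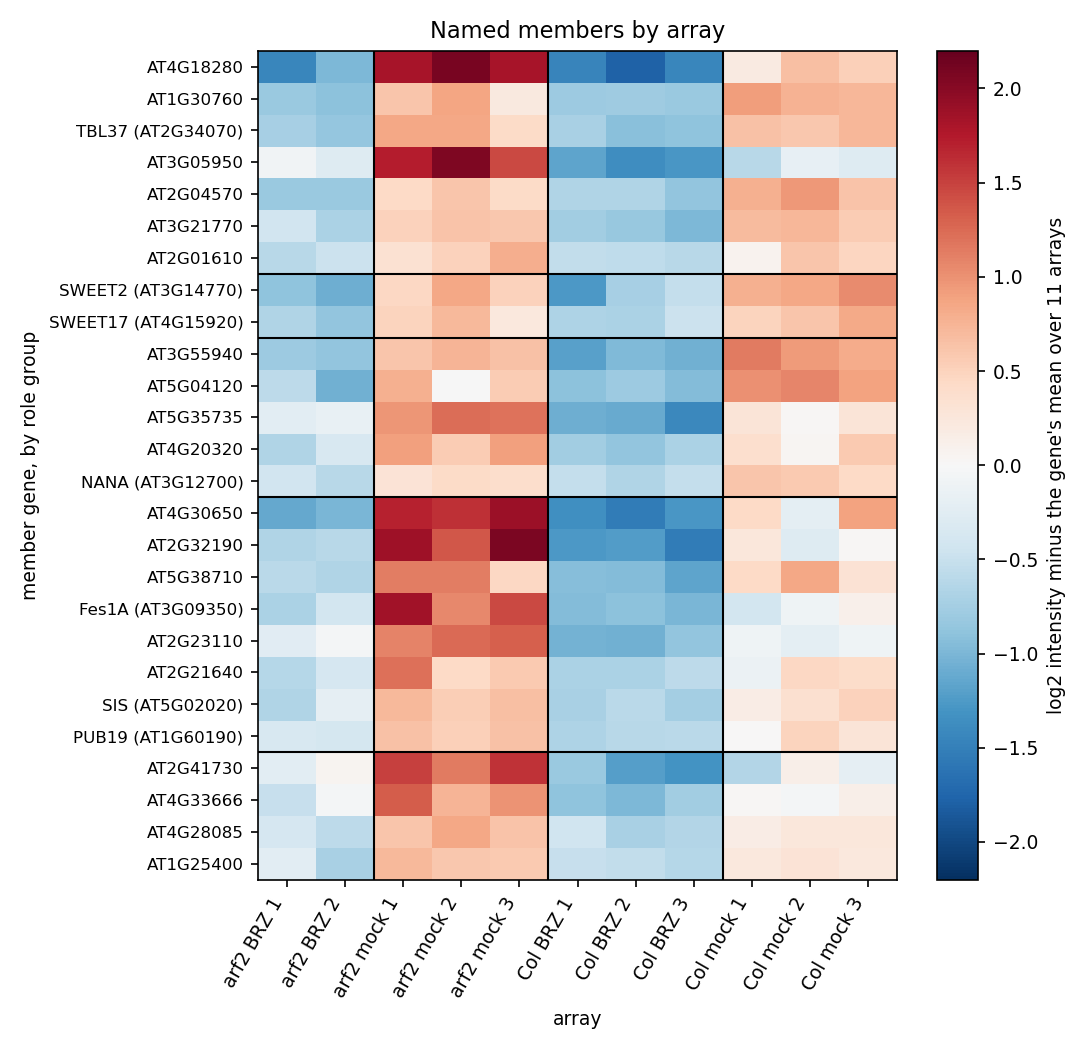
Log2 intensity of the 26 named members on each of the 11 arrays, minus the mean of that gene over all arrays. Rows run by role group (wall and secreted, sugar transport, enzymes and signalling, stress-linked, no role given) and columns by group. All BRZ arrays are below the mock arrays of their genotype, and several stress-linked rows are highest on the 3 arf2 mock arrays.

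Among members named for no single gene, 4 held extremes and were singled out after their values were seen. Probe set 246481_s_at, which matches several genes, had one of the deepest differences in both genotypes. It read 105 and 178 on arf2 BRZ, against 1004, 1008 and 1036 on arf2 mock, and 108, 94.3 and 107 on Col BRZ, against 393, 647 and 774 on Col mock. Probe set 264007_at was lower 4.78-fold in arf2 and 5.71-fold in Col, the largest factor in Col, from a mean mock level of 2422 in arf2 and 4310.4 in Col. Probe set 246099_at was lower 12.3-fold in arf2 and 2.27-fold in Col, the largest factor in arf2. Probe set 249037_at was lower 3.33-fold in arf2 and 5.32-fold in Col.

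The difference was deeper in arf2 for 41 members (63.1%) and deeper in Col for 24. Over all probe sets tested the arf2 difference was the more negative in 13138 of 21886, so the members' share lay near the background. It differed by at most 0.25 on the log2 scale for 23 members. It was deeper in arf2 by more than 1 for 8 members and deeper in Col by more than 1 for 0. The shares of all probe sets with differences of these sizes were not counted, and the arf2 effects rest on 2 BRZ arrays. The arf2 effect minus the Col effect ran from -2.44 ± 0.35 (SE, log2) for 246099_at to 0.92 ± 0.23 for 253957_at. Both effects chose the members, so these differences are described and not tested.

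The size of the BRZ effect was also read in arrays that had not chosen the probe sets. For the 184 probe sets selected on Col arrays alone, the arf2 arrays gave a median BRZ minus mock difference of -0.63, against 0.00 for all probe sets. By limma's moderated test with Benjamini-Hochberg adjustment over 21886 probe sets, 103 of them (56.0%) were called lower in arf2 at an adjusted p under 0.05, and 3 were called higher. Of all probe sets tested, 2.89% were called lower and 2.92% higher in arf2. For the 320 selected on arf2 arrays alone, the Col arrays gave a median of -0.32, against 0.06 for all, and 118 (36.9%) were called lower and 7 higher in Col. The shares over all probe sets tested were 2.74% lower and 6.2% higher in Col. With equal array medians, the share of calls that were higher was 36.4% in place of 50.2% in arf2 and 34.7% in place of 69.4% in Col. The medians use only arrays of the other genotype, but the calls use a variance shared by all groups. That variance includes the arrays that chose the probe sets. In a fit of only the groups compared, the shares called lower were 53.8% in arf2 and 30.9% in Col. All arrays were normalised together, so the arrays of one genotype are not fully separate from those of the other.

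The choice did not use the comparison of arf2 with Col, although the same arrays enter it. Whether choosing on mock levels above BRZ levels shifted the genotype counts was not tested. On mock, 28 of the 65 members (43.1%) were called higher in arf2 and 5 (7.69%) lower. Of all probe sets tested, 5.38% were called higher and 1.97% lower. This background was not matched for level. The members' median log2 intensity was 8.11 on Col mock and 8.56 on arf2 mock, against 5.88 and 6.01 for all probe sets. The members' median arf2 minus Col difference on mock was 0.46 on the log2 scale, against 0.05 for all probe sets. With equal array medians the share of calls over all probe sets that were higher was 44.2% in place of 73.2%, and with quantile normalization 53.6%. Under these scalings 26 members were called higher, and 6 and 7 lower.

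Of the 28 members higher in arf2 on mock, 10 name 1 gene. The germin-like AT3G05950 had the largest of these differences, 4.31-fold (log2 2.11 ± 0.16 SE, adjusted p 1.46e-05, 3 arrays of arf2 above 3 of Col). The CYSTM gene AT2G32190 was 3.42-fold higher (1.77 ± 0.18, adjusted p 0.00012), AT2G41730 was 3.14-fold higher (adjusted p 0.000426) and Fes1A was higher by 1.59 ± 0.18 on the log2 scale (adjusted p 0.000317). The glycine-rich AT4G18280 was 2.72-fold higher (adjusted p 0.000203), and the late embryogenesis abundant AT2G23110 2.55-fold (1.35 ± 0.10, adjusted p 1.32e-05). AT4G30650 was higher by 1.35 ± 0.21 on the log2 scale (adjusted p 0.00272), AT4G33666 by 0.99 ± 0.15 (adjusted p 0.00252), AT5G35735 by 0.94 ± 0.12 (adjusted p 0.000616) and AT4G28085 by 0.48 ± 0.11 (adjusted p 0.019). In all 10 genes every arf2 mock array lay above every Col mock array, as in 14.6% of all probe sets. These are the arrays that gave the calls, so this adds no separate support.

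The call for AT4G28085 was lost with quantile normalization, equal array medians and without Col mock array 1 or arf2 mock array 2, among others, with an adjusted p of up to 0.171. The 25S rRNA control was higher on arf2 mock than on Col mock as well (173 to 263 against 59.7 to 95.9). Its part in these differences was not tested.

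The 5 members lower in arf2 on mock name no gene. They were 249037_at (log2 -1.53 ± 0.14, adjusted p 7.46e-05), 253957_at (-0.98 ± 0.16, adjusted p 0.00282), 264007_at (-0.83 ± 0.12, adjusted p 0.00127), 255549_at (-0.70 ± 0.12, adjusted p 0.00491) and 248252_at (-0.44 ± 0.12, adjusted p 0.0497). Each of the 5 was lower in every arf2 mock array than in every Col mock array, as were 5.7% of all probe sets. The same arrays gave the calls. Among named members limma called 0 lower, and 3 had a negative difference at an unadjusted p under 0.05. That count was 6 with quantile normalization, 7 with equal array medians and 0 without Col mock arrays 1 and 2. Of the named members with a negative difference, AT5G04120 had the largest (log2 -0.55 ± 0.18) and the lowest adjusted p (0.102). Next by adjusted p were the phospholipase C gene AT3G55940 (-0.30 ± 0.10, adjusted p 0.118) and AT2G04570 (-0.30 ± 0.10, adjusted p 0.121). SWEET2 was further from a call, with -0.29 ± 0.18 (adjusted p 0.402). TBL37 had 0.05 ± 0.12 (adjusted p 0.859), with overlapping groups.

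By role groups formed after the values were seen, 4 of the 8 stress-linked genes were called higher in arf2 on mock and all 8 had a positive difference, with a median of 0.93 on the log2 scale. Of the 4 genes with no role given, 3 were called higher and all 4 were positive, with a median of 0.73. Of the 7 wall and secreted genes 2 were called higher, and the median was 0.05. Of the 5 genes of enzymes and signalling 1 was called higher and 3 had a negative difference, with a median of -0.17. Of the 2 sugar transporter genes 0 were called and both had a negative difference, with a median of -0.23. Over all probe sets tested 5.38% were called higher and 61.2% had a positive difference. The other 4 stress-linked genes did not pass (log2 difference ± SE of 0.31 ± 0.13 for SIS, 0.34 ± 0.12 for PUB19, 0.37 ± 0.18 for AT5G38710 and 0.51 ± 0.20 for AT2G21640).

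On BRZ, with 2 arf2 arrays, of the 65 members 7 (10.8%) were called higher in arf2 and 1 (1.54%) lower, and all 8 were also called in the same direction on mock. Of all probe sets tested, 0.297% were called higher and 0.32% lower, a background again not matched for level. With equal array medians the share of calls over all probe sets that were higher was 34.8% in place of 48.1%. The median difference of the members was 0.26 on the log2 scale, against 0.01 for all. Every arf2 BRZ array was above every Col BRZ array in 33 members (50.8%) and below in 4 (6.15%), where 17.6% and 15.3% of all probe sets were. On mock the corresponding counts were 37 (56.9%) and 11 (16.9%), where 14.6% and 5.7% of all probe sets were. Whether the genotype difference itself changed with BRZ was not tested for members, since that quantity equals the difference between the effects that chose them.

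The 3 named genes called on BRZ were AT3G05950, AT5G35735 and AT2G23110. AT3G05950 was higher in arf2 by 1.09 ± 0.18 (SE, adjusted p 0.0165), AT5G35735 by 1.0 ± 0.13 (adjusted p 0.00501) and AT2G23110 by 0.84 ± 0.11 (adjusted p 0.0046), on the log2 scale with 2 arrays against 3. Each call rests on few arrays. Without arf2 BRZ array 2 limma called 0 members higher, although 19 had an unadjusted p under 0.05, and without Col BRZ array 1, 2 or 3 the count was 4, 4 and 3. The replicate number as a block gave 3. The call of AT3G05950 was lost with that block (adjusted p 0.0841) and also without any 1 of the 5 BRZ arrays, with adjusted p between 0.0574 and 0.229. The 1 member called lower was 249037_at (-0.85 ± 0.16, adjusted p 0.0416). Its limma call was lost in 9 of 24 alternatives. Among them were those without any 1 of the 5 BRZ arrays, with adjusted p between 0.0535 and 0.387. Without Col mock array 2, which enters through the shared variance, 11 members were called higher.

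**Figure D4:**
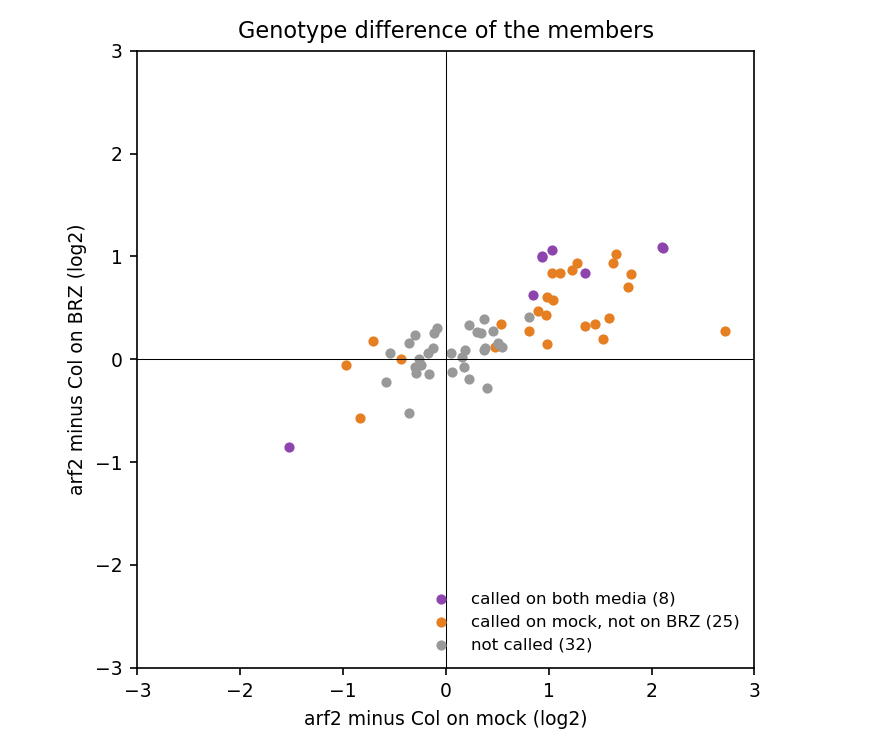
Difference between arf2 and Col on mock (horizontal) and on BRZ (vertical) for the 65 members, in log2 units from the linear model. Colours show in which comparisons a member was called. The 8 called on both media lie in the upper right (7) and lower left (1), and 25 were called on mock without being called on BRZ.

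Few other genes of the pathway could be read. No probe set is named for any of 10 genes of brassinosteroid synthesis or 4 of its inactivation, and of 12 signalling genes only the receptor homologue BRL1 is. BRL1 read 19.2 to 25.8 on all arrays, near the lower quartile, and was called in neither genotype (adjusted p 0.915 in arf2 and 0.421 in Col). Of 13 growth genes known to be induced by brassinosteroid, 2 are named. The expansin EXPA8, which loosens walls, fell in Col by 0.32 (SE 0.09, adjusted p 0.0439) and had a log2 difference of 0.11 ± 0.10 in arf2 (adjusted p 0.664). ARL, a promoter of cell expansion, rose in Col by 0.87 ± 0.19 (adjusted p 0.0165), with 0.39 ± 0.21 in arf2 (adjusted p 0.405). The arf2 effect minus the Col effect was 0.43 ± 0.13 for EXPA8 and -0.48 ± 0.29 for ARL (SE, log2), with no test.

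The material could be checked with few markers. The named marker genes were PYK10, of root and hypocotyl ER bodies, and the root hair genes EXPA7 and EXPA18. PYK10 read 8159.8 to 10169 on all arrays and was not called with BRZ in either genotype (log2 difference 0.04 ± 0.10 in arf2 and -0.12 ± 0.09 in Col). EXPA7 and EXPA18 read 16.6 to 37.0 on all arrays. The cellulose synthesis gene COB, the 1 named of 7, read 746 to 864 on all arrays. No probe set is named for the listed light-induced, seed reserve or xylem genes, so these were not analysed here.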

How the data were processed

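Expression was measured on 11 Affymetrix ATH1 arrays. The deposited intensity values are gcRMA estimates per probe set, made by the authors after quality control with simpleaffy, per the labels' design text, with no version given. They are linear and were converted to log2. Precision is set by how many arrays a group has. Of 22810 probe sets 64 controls were left out. For tests, 860 probe sets that did not exceed a log2 of 4 on at least 2 arrays were dropped, which left 21886. A single limma 3.58.1 model (R 4.3.3) with 1 mean per group covered all 11 arrays, and adjusted p is its moderated two-sided p, corrected by Benjamini-Hochberg across every probe set tested. Calls are at an adjusted p under 0.05, errors of log2 differences are SE, and folds are powers of 2 of these differences. The fit and the Col condition of the selection were tried on simulated data. The arf2 condition and the 2 conditions together were not.

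Gene names came from the supplied platform annotation and the TAIR10.1 gene table. Of 22746 probe sets 13513 name 1 gene, 503 several and 8730 none. Members and lists were chosen with earlier results of these data known. All named members are reported, with 4 chosen by extreme values and all 5 of the members called lower on mock given by probe set ID. Gene descriptions were not used here, so the planned keyword classes were replaced by role groups from general knowledge. No sequences are shown. Alternatives covered normalization, filters, variance models, blocks and arrays left out. Figures used matplotlib 3.10.9.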

Additional observations from a re-analysis of the deposited data

How the results depend on the processing

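All 65 members met the rule under quantile normalization (82 probe sets in all), the floor at a log2 of 4 and equal array medians, which gave 105. The threshold alone, without the condition on separate arrays, gave the same 65. With 1 array left out, between 57 (without Col mock 2) and 65 (without arf2 mock 3) of the members still met the rule. A threshold of -1 gave 38 and -0.6 gave 141. On mock, the number of probe sets called between arf2 and Col was 663 in a fit of only these groups and 726 both at an adjusted p under 0.01 and, as chosen after seeing the data, without Col mock arrays 1 and 2. It was 882 to 3040 with 1 array left out. On BRZ it was 204 with a filter at a log2 of 6, 903 with array weights, 66 with the replicate block, 372 in a fit of only these groups, 57 at 0.01, 338 without Col mock 2 and arf2 mock 3, 333 without Col mock 1 and 2, and 49 to 256 with 1 array left out. In the same order, members called higher on BRZ were 11, 17, 3, 12, 3, 12, 12 and 0 to 11. Members called lower there were 0 with the floor or at 0.01, 2 with trend and robust variances, in the fit of these groups or without Col mock 1 and 2, 3 with array weights, and 0 to 1 with 1 array left out.

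The numbers of members called on mock and both shares read in the other genotype stayed within 1.5 times of their values under every alternative run. None of the genotype calls of named members changed sign. AT4G33666 lost its call on mock without Col mock 1 and 2 (adjusted p 0.0559), AT2G23110 on BRZ without arf2 BRZ 2 (0.0703), AT3G05950 on BRZ without any 1 BRZ array (highest 0.229), and AT5G35735 on BRZ without either arf2 BRZ array (highest 0.07). Deviations from group means correlated between -0.59 and 0.14 over 15 pairs of the same replicate number. Over 30 pairs of different numbers they correlated between -0.44 and 0.60. The highest correlation was for Col mock 2 with arf2 mock 3, the arrays left out together above. Arrays of the same number were thus no more alike, but correlations cannot settle whether they were prepared together. The deviations of the 2 arf2 BRZ arrays mirror each other by construction. With the replicate block 26 members were called higher and 4 lower on mock.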
